A study of Arabidopsis thaliana with 6 samples.

Results

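The 4 genes described here are AKINBETA1 (AT5G21170), AT4G27450, AT5G57655 and AT1G80130, grouped under sugar and energy signalling. They were chosen by name, with knowledge that their signals were higher with saliva, so the comparison of saliva with control is for them a description and not a test. Each had 1 probe set, and these are 4 of the 22746 probe sets that represent genes on the ATH1 array. Of the 4, AKINBETA1 is a named component of an energy-sensing kinase and AT5G57655 encodes xylose isomerase, an enzyme of sugar metabolism. AT4G27450 belongs to a family of aluminium-induced proteins that carry YGL and LRDR motifs. AT1G80130 carries only its locus name in the tables used here, and nothing in them places it in sugar or energy signalling.

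The study asked which Arabidopsis thaliana transcripts respond to saliva of the green peach aphid Myzus persicae, an insect that feeds on the sugar-rich sap of the phloem. Both groups were wild-type Col-0 plants, 3 weeks old and not yet flowering, whose seeds had been held at 4 °C for 24 h before sowing and which grew at 23 °C and 50% humidity with a 16 h photoperiod. The saliva group and the control group had 3 arrays each. The labels used here give neither the tissue, the way saliva was applied, the time after treatment nor what the control plants received, and they do not say whether replicates came from separate plants, so p-values cover only the spread among arrays, part or all of which may be technical.

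SnRK1 is a protein kinase complex of plant cells that is active when sugar or energy is short. It has a catalytic alpha subunit, a scaffold beta subunit of which AKINBETA1 is one form, and a regulatory gamma subunit. Its activity and the loss of sugar raise a set of transcripts known as sugar-repressed or dark-inducible genes, many of which encode enzymes that break down amino acids, carbohydrates or cell walls. Xylose isomerase interconverts xylose, a sugar of plant cell walls, and xylulose.

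Signals were deposited on a linear scale with the same trimmed mean of 100.01 on all 6 arrays and medians of 32.4 to 33.4, and no detection calls were used. Over the 13647 probe sets tested, single pairs of arrays correlated at 0.975 to 0.987 (Pearson). Saliva replicate 3 had the lowest mean correlation within its group, 0.980, against 0.983 and 0.984 for saliva replicates 1 and 2 and 0.985 to 0.986 for the control arrays. Mean correlations with the control arrays were 0.984, 0.982 and 0.977 for saliva replicates 1, 2 and 3. Saliva replicate 1 was thus no closer to its own group than to the controls. Values for the 4 genes are therefore given without saliva replicate 3 and with each array left out in turn. Among the marker genes named on the array, the leaf gene RCA, which encodes Rubisco activase, had signals of 4948 to 5652 in the saliva arrays and 5305 to 5721 in the control arrays. PYK10, EXPA7 and EXPA18, marker genes of the root, were dim, at 0.603 to 11.2 in the saliva arrays and 1.31 to 8.83 in the control arrays. The guard cell gene FMA had 41.6 to 50.4 in the saliva arrays and 42.8 to 51.0 in the control arrays. No phloem or flower marker was named here.

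AKINBETA1 had signals of 283, 322 and 237 in saliva replicates 1, 2 and 3, against 212, 196 and 229 in control replicates 1, 2 and 3. All 3 saliva arrays lay above all 3 control arrays, but saliva replicate 3 exceeded control replicate 3, the brightest control, by only 7.59 signal units. The mean signal was 281 ± 42.7 with saliva and 212 ± 16.7 in the controls (SD, n = 3 each), a ratio of 1.32. On the log2(signal + 16) scale, in which the offset of 16 damps the noise of dim probe sets, the difference was 0.37 ± 0.12 (SE of the fit). It was the smallest difference of the 4 genes, and its place by size among the 13647 probe sets tested, counted from the most positive difference, was 401.

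AT4G27450 had signals of 251, 337 and 408 in saliva replicates 1, 2 and 3, against 199, 146 and 163 in control replicates 1, 2 and 3. The groups did not overlap, and the dimmest saliva array was 52.0 units above the brightest control. The mean was 332 ± 78.6 with saliva and 169.5 ± 26.8 in the controls (SD, n = 3 each), a ratio of 1.96. The difference on the log2(signal + 16) scale was 0.89 ± 0.16, the largest of the 4 genes and at place 23 by size among those tested. Its replicates were also the most scattered of the 4: the within-group SD of 0.28 on that scale was larger than that of 92.3% of the probe sets tested, whose median SD was 0.15.

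AT5G57655, the xylose isomerase gene, had signals of 228, 272 and 327 in saliva replicates 1, 2 and 3, against 156, 148 and 169 in control replicates 1, 2 and 3. The 3 control arrays lay close together, at 158 ± 10.7, and all saliva arrays lay above them, at 276 ± 49.8 (SD, n = 3 each). The ratio of the means was 1.75. The difference was 0.74 ± 0.13 on the log2(signal + 16) scale, and its place by size among the probe sets tested was 63. The gap between the groups was 58.6 signal units, and the saliva arrays spread more widely (SD 0.25 on the log2 scale) than the controls (SD 0.089).

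AT1G80130 had signals of 92.1, 91.9 and 131 in saliva replicates 1, 2 and 3, against 55.9, 54.0 and 40.1 in control replicates 1, 2 and 3. Saliva replicate 3 was the highest array and control replicate 3 the lowest, and the groups were separated by 36.0 units. The mean was 105 ± 22.8 with saliva and 50.0 ± 8.61 in the controls (SD, n = 3 each), a ratio of 2.10, the largest ratio of the 4. On the log2(signal + 16) scale the difference was 0.87 ± 0.15, place 30 by size. The offset weighs more at low signals, and with an offset of 64 the value was 0.56. With an offset of 1 it was 1.05, above the 0.95 of AT4G27450, so which of these genes had the largest difference depends on the offset.

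**Figure D1:**
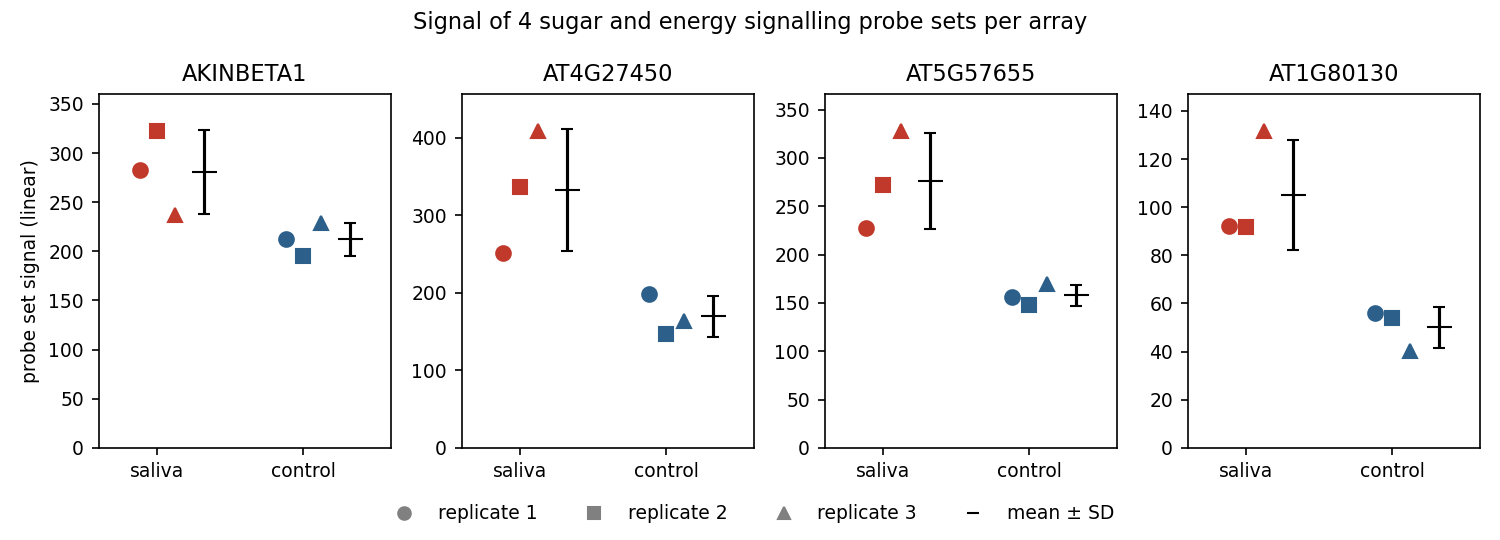
Signal of each probe set (vertical axis, linear scale from 0) on each array, with saliva left and control right in each panel; symbols mark replicate numbers and black marks the mean ± SD of 3 arrays. In each panel the 3 saliva points lie above the 3 control points, by 7.59 units for AKINBETA1 and by 36.0 to 58.6 units for the other genes.

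All 4 genes passed the filter on dim probe sets, each with control means above the lowest mean log2 value kept, 5.04, so none was admitted through its saliva arrays alone. The 3 saliva values lay above the 3 control values in 4 of 4, where 7.8% of all probe sets tested did so. In limma 0 of the 4 passed a Benjamini-Hochberg adjusted p of 0.05 over all probe sets, and 4 had an unadjusted p under 0.05 in the upward direction. The background was 8 of 13647 probe sets at the adjusted threshold (0.0586% in either direction) and 5.39% higher at the unadjusted one. The calls moved with the setting: AT4G27450 and AT5G57655 passed without saliva replicate 1, AT5G57655 with the replicate number as a block, and these 2 and AT1G80130 with array weights, while the background count ran from 1 to 53. Nothing is read from these counts, since the genes were chosen on this contrast. The labels do not give the tissue, and from these signals more cells of a type and more RNA per cell cannot be told apart.

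The 4 genes did not vary alike among the replicates. In the saliva group, AT4G27450, AT5G57655 and AT1G80130 were highest in replicate 3, by 0.31, 0.25 and 0.30 above their group means on the log2 scale. AKINBETA1 was lowest there, at -0.22 from its group mean, and highest in saliva replicate 2, at 0.20. The control group divided the genes otherwise. Control replicate 3 was highest for AKINBETA1 and AT5G57655, at 0.11 and 0.094 from their group means. It was lowest for AT1G80130, at -0.23, and between the other controls for AT4G27450, at -0.039. The distance between these deviations was taken as the root mean square difference over the 6 arrays between log2 values centred on the mean of their own group, which leaves out the difference between the groups. It was 0.13 between AT4G27450 and AT5G57655, and 0.18 from AT1G80130 to each of these. From AKINBETA1 it was 0.24 to AT5G57655, 0.30 to AT4G27450 and 0.31 to AT1G80130. With 3 arrays a group these distances are a description, and no such distance between other probe sets is given beside them.

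**Figure D2:**
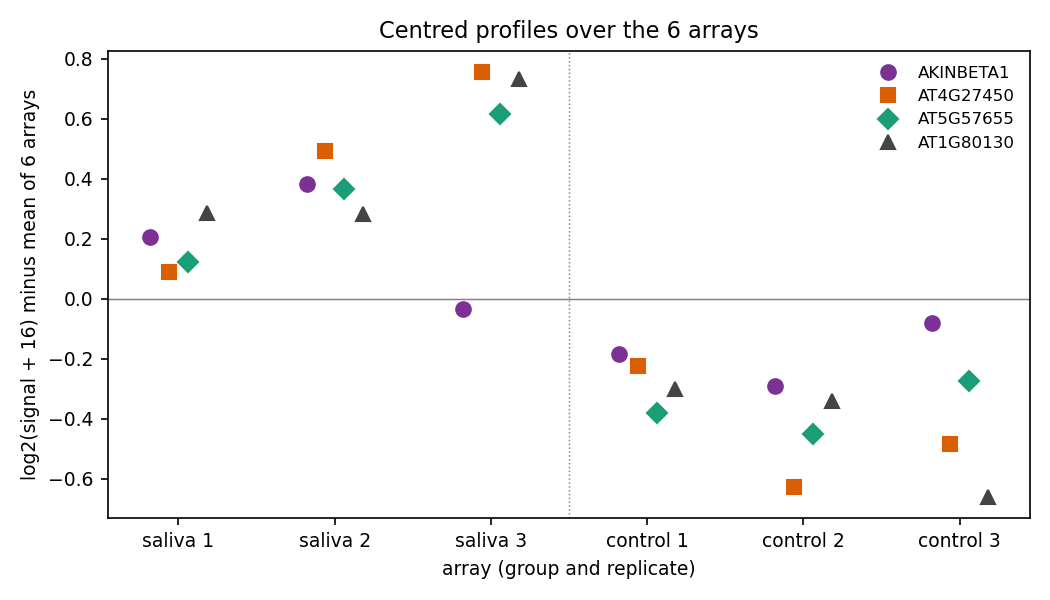
The log2(signal + 16) value of each gene minus its own mean over the 6 arrays (vertical axis), for the saliva arrays on the left and the control arrays on the right of the dotted line. AT4G27450, AT5G57655 and AT1G80130 are highest in saliva replicate 3, while AKINBETA1 is there at -0.036, next to its value of -0.080 in control replicate 3.

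Without saliva replicate 3 the difference of AKINBETA1 was 0.48, and the other genes had 0.74 (AT4G27450), 0.61 (AT5G57655) and 0.72 (AT1G80130). So 1 array drew AKINBETA1 down and the other genes up. With each of the 6 arrays left out in turn, AKINBETA1 ran from 0.27 to 0.48, AT4G27450 from 0.74 to 1.07, AT5G57655 from 0.61 to 0.86 and AT1G80130 from 0.72 to 0.94. The lowest value of AKINBETA1 came without saliva replicate 2, its highest array.

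**Figure D3:**
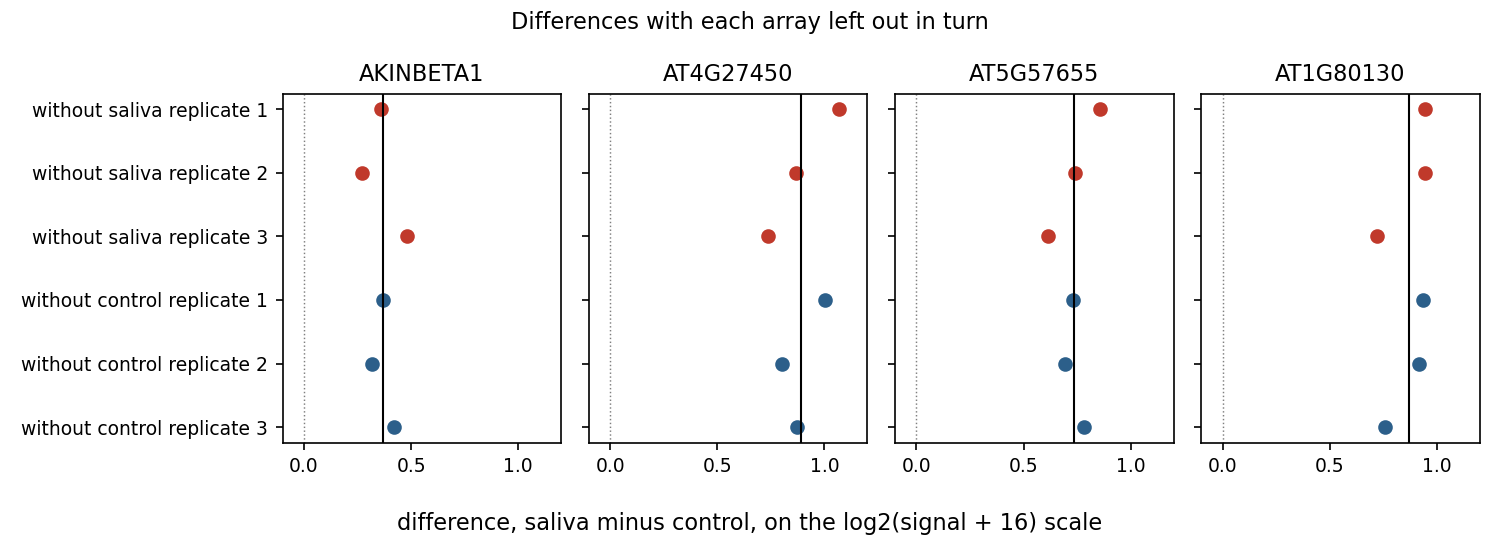
Difference between saliva and control on the log2(signal + 16) scale (horizontal axis) for each gene with 1 array left out (rows, red for a saliva array and blue for a control array); the black line is the value with all 6 arrays and the dotted line is 0. The points of AKINBETA1 lie between 0.27 and 0.48 and those of the other genes between 0.61 and 1.07.

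Other genes of the pathway were taken from 8 lists by locus, for the SnRK1 complex, its bZIP partners, trehalose metabolism, sugar-repressed genes, sugar-induced genes, glucose sensing with TOR, xylose metabolism and the family of AT4G27450. Leaving out the genes described above, the lists hold 91 genes, of which 18 have a named probe set here and 17 entered the fit. In limma 0 of the 17 passed an adjusted p of 0.05 (background 0.0586%), and 5 had an unadjusted p under 0.05, all 5 higher with saliva (background 5.39%) and 0 lower (background 4.82%). Values were higher in 14 and lower in 3 of the 17, where 51.5% of all probe sets tested were higher. Of those counted as higher, ATL8, RAPTOR1, AT5G43830 and AT3G22850 changed sign under some alternative settings, as did CCL of those counted as lower. In 6 of the 17 all saliva arrays lay above all control arrays (background 7.8%), and in 0 all lay below (background 7.72%). On the log2 scale the gap was only 0.0041 for MCCB, 0.0053 for bZIP53 and 0.013 for AT2G32150. It was 0.070 for APL3, 0.11 for IVD and 0.15 for PPDK. The median difference of the 17 was 0.12 on the log2 scale, against 0.0057 over all probe sets tested. The lists were written with earlier results of these arrays known, so these counts describe the lists and support no direction.

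Of the SnRK1 complex, 2 of 9 other genes were named and tested, both beta subunits. AKINBETA2 had signals of 123, 119 and 137 in saliva replicates 1, 2 and 3, against 136, 139.96 and 137 in control replicates 1, 2 and 3, a difference of -0.11 ± 0.11 (limma adjusted p = 0.774). AKINBETA3, a shorter beta subunit without the carbohydrate-binding module of the others, had 92.2, 90.9 and 102 in the saliva arrays, against 117, 115 and 98.7 in the control arrays, a difference of -0.19 ± 0.11 (limma adjusted p = 0.620). The groups overlapped in both genes, and neither passed the threshold. The beta subunit AKINBETA1 was thus higher in value and the other 2 lower in value. Whether the subunits differed in response was not tested, since AKINBETA1 was chosen for its response.

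Of the bZIP transcription factors of groups C and S1, which take part in the response to low energy, 2 of 9 were tested. bZIP53 had 487, 476 and 512 in the saliva arrays, against 474, 446 and 435 in the control arrays, a difference of 0.12 ± 0.098 (limma adjusted p = 0.732). The groups did not overlap, by a narrow margin, and the threshold was not passed. bZIP44 had 32.9, 33.3 and 26.7 in the saliva arrays, against 40.6, 21.2 and 18.7 in the control arrays, with overlapping groups and a difference of 0.16 ± 0.18 (limma adjusted p = 0.816), which ran from 0.030 to 0.38 with single arrays left out.

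Of the 24 sugar-repressed genes, 8 were named and tested. The dark-inducible genes SEN1, ASN1, DIN2, DIN10 and DIN4 were among those without a named probe set here, so the counts cover only part of the list. Values were higher with saliva in 7 and lower in 1 (51.5% of all probe sets tested were higher), with a median difference of 0.21. In limma 0 of the 8 passed the adjusted threshold (background 0.0586%), and 4 had an unadjusted p under 0.05, all higher (background 5.39%). The list was written with earlier results known, and its counts are a description. PPDK, which encodes pyruvate orthophosphate dikinase, had signals of 237, 236 and 221 in the saliva arrays, against 197, 146 and 135 in the control arrays. Its groups did not overlap, and its difference of 0.51 ± 0.13 was the largest of the list (limma adjusted p = 0.173). AT2G32150 had 289, 278 and 327 in the saliva arrays, against 218, 276 and 176 in the control arrays, a difference of 0.41 ± 0.14 (limma adjusted p = 0.316). Its lowest saliva array was only slightly above its highest control array, and the difference ran from 0.26 to 0.57 with single arrays left out.

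AT3G15450 belongs both to the sugar-repressed list and to the family of AT4G27450. Its signals were 1161, 1546 and 1519.6 in the saliva arrays, against 1060.2, 942 and 1231 in the control arrays. Saliva replicate 1 lay within the range of the controls, and the difference was 0.38 ± 0.13 (limma adjusted p = 0.312). IVD, which encodes isovaleryl-CoA dehydrogenase of leucine breakdown, differed by 0.24 ± 0.11 (limma adjusted p = 0.488), with 96.3 to 102 in the saliva arrays and 77.9 to 87.8 in the control arrays. MCCA and MCCB, the subunit genes of methylcrotonyl-CoA carboxylase in the same breakdown route, differed by 0.17 ± 0.11 and 0.15 ± 0.11. ATL8 differed by 0.065 ± 0.14 and was -0.015 without control replicate 1, and its sign also turned with array weights. CCL differed by -0.087 ± 0.091 and was 0.0014 with quantile normalization, so the direction of neither is settled.

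The family of AT4G27450 was measured in full. Its 4 other members were higher in value with saliva (51.5% of all probe sets tested were), with a median of 0.090 and a range of 0.020 to 0.38. In limma 0 of the 4 passed the adjusted threshold (background 0.0586%), and 1, AT3G15450, had an unadjusted p under 0.05 (background 5.39% higher). AILP1 had 2774, 2783 and 3179.99 in the saliva arrays, against 2639, 2568 and 2872 in the control arrays, a difference of 0.11 ± 0.096 (limma adjusted p = 0.750). AT5G43830 and AT3G22850 differed by 0.020 ± 0.11 and 0.070 ± 0.16. The sign of AT5G43830 turned without saliva replicate 1, control replicate 2 or control replicate 3. That of AT3G22850 turned without saliva replicate 3 and with array weights. The value of AT4G27450, 0.89, was the largest of the family, AT3G15450 came next at 0.38, and whether they differ was not tested.

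The remaining lists were barely represented. APL3, a sugar-induced gene for a large subunit of ADP-glucose pyrophosphorylase in starch synthesis, had 116, 74.2 and 76.8 in the saliva arrays, against 69.9, 54.0 and 61.5 in the control arrays. The groups did not overlap, and the difference was 0.42 ± 0.15 (limma adjusted p = 0.352), or 0.24 without saliva replicate 1, its highest array, a change of more than 1.5 times. APL4, another gene of the same subunit type, was under the filter, at 10.9 to 16.4 in the saliva arrays and 13.6 to 16.9 in the control arrays. RAPTOR1, a subunit of the TOR kinase complex that promotes growth when nutrients are ample, differed by 0.044 ± 0.12 (limma adjusted p = 0.942), and by -0.033 without control replicate 1. Of trehalose metabolism, 0 of 19 genes were named here. Of xylose metabolism, 0 of 10 genes other than AT5G57655 were named here.

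**Figure D4:**
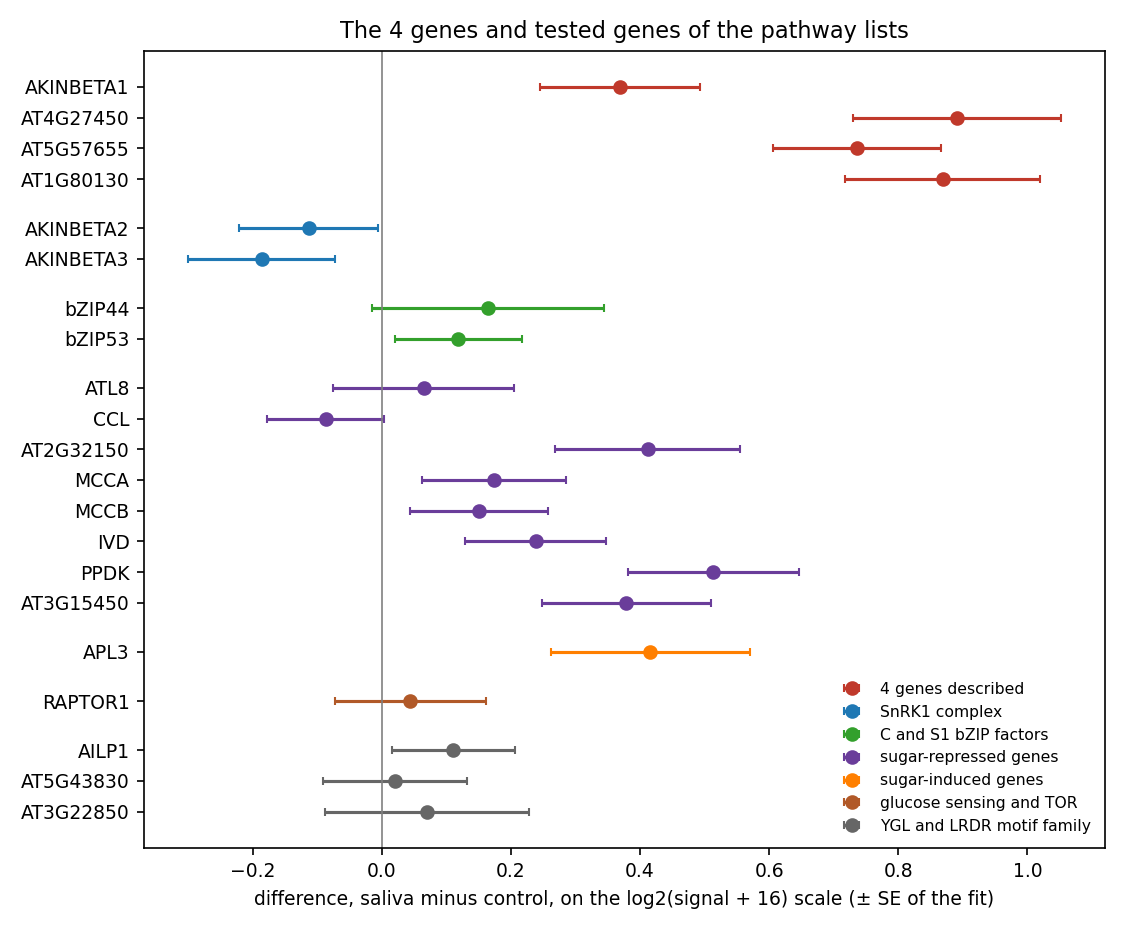
Difference between saliva and control on the log2(signal + 16) scale (horizontal axis, points ± SE of the limma fit) for the 4 genes at the top and the 17 tested list genes below, coloured by list; AT3G15450 is drawn with the sugar-repressed genes. The 4 genes lie between 0.37 and 0.89, PPDK is the highest list gene at 0.51, and AKINBETA2 and AKINBETA3 lie at -0.11 and -0.19.

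The probe sets whose profiles over the 6 arrays were most like those of each gene were sought among the 7366 other tested probe sets with 1 gene, by the root mean square distance between log2 values centred on each probe set's mean over all 6 arrays. Nearest to AKINBETA1 were AT1G26580, AT2G35680 and AT3G22220, at distances of 0.044, 0.046 and 0.069, and their differences between saliva and control were 0.35, 0.34 and 0.35. Each was highest in saliva replicate 2 and, within the saliva group, lowest in replicate 3, as AKINBETA1 was. Such likeness was common for a profile of this small range, with 255 probe sets within a distance of 0.15.

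Nearest to AT5G57655 were AT1G62510, a gene for a lipid-transfer-like protein, AT1G11380, and IRX15-L, which takes part in making xylan of cell walls. Their distances were 0.095, 0.10 and 0.12, and their differences 0.85, 0.61 and 0.63. Only 6 probe sets lay within 0.15. IRX15-L had 32.3, 28.4 and 42.8 in the saliva arrays, against 16.5, 14.7 and 18.0 in the control arrays, and its control mean of 5.02 on the log2 scale was under the lowest mean that the filter kept.

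Nearest to AT4G27450 were WES1, an enzyme gene that joins auxin to amino acids, AT2G28200 and AT3G19680, each at 0.14 or 0.15. WES1 and AT2G28200 had control means of 4.95 and 4.85 and passed the filter through their saliva arrays. AT3G19680 had 351, 400.1 and 608 in the saliva arrays, against 337, 198 and 232 in the control arrays, with saliva replicate 1 only slightly above control replicate 1. Nearest to AT1G80130 were AT1G50040 at 0.12, then WES1 and AT3G50900, each at 0.16. AT1G50040 had 44.0, 45.9 and 56.7 in the saliva arrays, against 22.8, 15.3 and 12.6 in the control arrays, and its control mean of 5.03 was also under the filter. These likenesses rest on 6 arrays that also differ by group, and the distance includes that difference.

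The genes next to each of the 4 on the chromosome were looked up by order in RefSeq assembly TAIR10.1, 2 protein-coding genes on each side. Of these 16 neighbours, 5 have a named probe set and 2 entered the fit, both beside AT4G27450. PORB, the gene directly before it, encodes a protochlorophyllide oxidoreductase of chlorophyll synthesis. It had 1285, 1339 and 1546 in the saliva arrays, against 1675, 1643 and 1889.7 in the control arrays, a difference of -0.32 ± 0.10 (limma adjusted p = 0.274). AT4G27435, the gene beyond PORB, had 20.5, 30.7 and 20.1 in the saliva arrays, against 33.9, 31.3 and 32.4 in the control arrays, a difference of -0.30 ± 0.14 (limma adjusted p = 0.504). In both, all saliva arrays lay below all control arrays, as in 7.72% of the probe sets tested, and neither passed the threshold.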

How the data were processed

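Each of the 6 ATH1 arrays has 1 deposited signal per probe set, a linear intensity. MAS5, GCOS and limma stand in the submitters' processing notes with no role, and with versions that are not given in the sources. The table had 0 columns of other samples. The authors' scaling was kept. The 64 control probe sets and the 40% of probe sets with the lowest mean log2(signal + 16) were left out, which left 13647 of 22746. The difference of saliva and control was fitted with limma 3.58.1 under R 4.3.3, using lmFit and a moderated two-sided test with a mean-variance trend (eBayes, with Benjamini-Hochberg adjustment over all probe sets tested). The fit was also run on simulated data with independent noise, in which recovery was required only for changes larger than those of the 4 genes. The number of arrays limits the precision.

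Names came from the platform annotation through gene identifiers in a RefSeq table of assembly TAIR10.1. This gave 13513 probe sets with 1 gene, 503 with several, from which no name was taken, and 8730 unnamed here. The genes, lists and settings were chosen with earlier results of these data known. Named are the 4 genes, per list up to 3 genes with the smallest unadjusted p, the 3 nearest profiles of each gene, and, chosen after the values were seen, the chromosome neighbours and the remaining tested members of the lists. Relatives were to be ranked by protein identity as well, which was not done here. A gene with several probe sets would be represented by the brightest one. Alternatives were the offset, scaling, filter, trend, array weights, a block for replicate number and leaving out single arrays.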

Additional observations from a re-analysis of the deposited data

How the results depend on the processing

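The 4 differences kept their sign under all 12 alternatives run for each, which is mostly no test. In each gene all saliva arrays lay above all control arrays, so leaving out an array or changing the offset could not reverse a sign. All of them moved by less than the within-group SD except that of AT1G80130, which was 0.56 with an offset of 64. Over these alternatives AKINBETA1 ran from 0.27 to 0.48, AT4G27450 from 0.74 to 1.07, AT5G57655 from 0.61 to 0.86 and AT1G80130 from 0.56 to 1.05. The count of 8 probe sets past the threshold was 2 when the offset was 1 and 2 when it was 64, 1 with quantile normalization (1 higher and 0 lower, against 6 and 2), 53 with array weights, 1 with no filter, 2 with the lowest 60% left out and 1 without a trend. It was 9 with median centring. Without single arrays it ran from 1 to 14, with 14, 1 and 2 without saliva replicates 1, 2 and 3 and 1, 2 and 1 without control replicates 1, 2 and 3. The cause was not tested. The count of 0 list genes past the threshold was 0 under all 15 alternatives. Of the 4 genes, AT4G27450 and AT5G57655 passed without saliva replicate 1, AT5G57655 with the replicate block, and these 2 and AT1G80130 with array weights, in which saliva replicate 3 had the lowest weight, 0.592. Deviations of same-numbered arrays correlated at -0.059, 0.12 and 0.15 for replicates 1, 2 and 3, and those of differently numbered arrays at -0.17 to 0.089. Saliva replicates 2 and 3 correlated best with the control of their own number, and saliva replicate 1 with control replicate 2. The labels do not say whether the numbers mark pairs. The main fit left them unpaired, and whether they are pairs is not settled. With the replicate block the count was 29. The differences were as without it, which the balanced design fixes in advance. The labels give no batch, and none was tested.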
